A study of Drosophila melanogaster with 16 samples.

Results

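The interaction of sex and genotype was examined in dissected midguts of Drosophila melanogaster, where the fly digests and absorbs its food. For each gene it is the log2 fold change of females labelled Myc RNAi (RNAi-labelled) over control females, minus the same log2 fold change in males. A value above 0 means that the gene fell further or rose less in males, and a value below 0 that it fell further or rose less in females. Of the 16 libraries, 15 were used, and of 9388 genes tested 131 (1.4%) were called, at an edgeR quasi-likelihood p adjusted over all tested genes below 0.05. Of these, 98 (1.04% of genes tested) had a difference above 0 and 33 (0.352%) a difference below 0.

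RNA from midguts was sequenced by poly(A) RNA-seq in 4 groups of virgin flies, with 30 midguts pooled into each library. Controls had the genotype w1118; mex1-GAL4 TS/+ and gave 4 female and 4 male libraries, numbered 1 to 8. The other genotype, mex1TS > MycRNAi GD1419, combined the driver with 1 Myc RNAi line and gave 4 female libraries (9 to 12) and 4 male ones, of which 3 (13 to 15) were used. The mex1-GAL4 driver, which is active in enterocytes, the absorptive cells of the gut, was thus carried by every group. Male library 16 was left out of the values below because genes of a testis list held 112102 reads in it, against 667 to 2311 in each of the other 15 libraries. With that library included, 81 genes had a difference above 0 and 19 below 0.

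Myc is a transcription factor that promotes cell growth, and in flies it is known to raise transcripts for ribosome assembly and for RNA polymerase I, which makes ribosomal RNA. Enterocytes secrete enzymes that break down starch, sugars, proteins and lipids, and they take up and convert the products. Their gene activity differs between regions of the midgut and between the sexes, and some carbohydrate-handling genes are known to be more active in male than in female midguts.

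Total counts ranged from 16630050 to 53586401 per library. The eye-pigment transporter gene w was at 10.6 to 26.5 CPM (counts scaled to the library size with TMM factors) in the 8 control libraries and at 302 to 561 CPM in the RNAi-labelled ones. The male-specific dosage compensation RNA roX1 (listed as lncRNA:roX1) was at 592 to 846 CPM in males and at most 1.88 CPM in females, so both genes separated the libraries as labelled. Summed over 14 enterocyte markers, the level was 30260 to 76070 CPM in female controls and 32840 to 64690 CPM in male controls, against 15880 to 19190 CPM in RNAi-labelled females and 19020 to 20800 CPM in RNAi-labelled males. The genotypes thus did not overlap in this sum in either sex, and its part in the results was not tested. Of the 14 markers, none was called for the interaction by edgeR (1 at an unadjusted p below 0.05), 6 were called higher and 4 lower in females, and 5 higher and 4 lower in males. Genotype effects within a sex were far more frequent than differences between them: 3725 genes (39.7%) were called in females, 20.2% of all genes higher and 19.4% lower, and 3707 (39.5%) in males, 21.1% higher and 18.4% lower. These comparisons share libraries with the interaction, so their values are given side by side and not as separate evidence.

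Myc itself, the gene the RNAi line targets (listed as dm; FBgn0262656, BDGP6 chromosome X, 3373159 to 3391697), was not lower in males with the RNAi label. It was at 125.5, 83.9, 60.0 and 84.1 CPM in the female controls and at 83.0, 51.3, 56.5 and 43.3 CPM in the RNAi-labelled females. Male controls held 22.5, 19.7, 25.2 and 33.7 CPM of Myc, and the RNAi-labelled males 30.4, 33.0 and 35.4 CPM. The groups overlapped within each sex, while every female library was above every male one. The Myc log2 fold change was −0.59 in females (edgeR adjusted p = 0.0486) and 0.38 in males (edgeR adjusted p = 0.248). Its interaction was −0.97 (95% interval −1.68 to −0.26), which was not called (edgeR adjusted p = 0.201). The call for Myc in females was lost without replicate 1, 2, 5, 7, 10, 11, 12, 13, 14 or 15, with an edgeR adjusted p of up to 0.194 without replicate 1. With total-count scaling the Myc effect was −0.17 in females, not called (edgeR adjusted p = 0.622), and 0.84 in males, called higher (edgeR adjusted p = 0.02485). The female call was also lost with no filter (edgeR adjusted p = 0.0554) and with all 16 libraries (edgeR adjusted p = 0.0892). Reads from the RNAi construct, if they were counted as Myc, cannot be told apart from those of the gene itself in these counts, so the Myc values may not measure the gene's own transcript alone; this was not tested. Because Myc was not lower in males, the groups of the second genotype are called RNAi-labelled and not knocked down.

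The genes with a difference above 0 were mostly genes that males held at a higher level and then lost further. Of the 98, 72 were called lower in both sexes, 20 were called only in males and lower there, 3 were called only in females, 2 were called higher in both sexes and 1 was called in opposite directions. These classes depend on the scaling: with total-count scaling the median effect of all genes was 0.43 in females and 0.50 in males. The female effect of lic then went from −0.44 to −0.03, and that of LManV from −1.51 to −1.08. Among controls, 70 of the 98 were called higher in males and 1 higher in females, where 1292 of all genes tested (13.8%) were called for sex, 7.06% higher in males and 6.7% higher in females. Among RNAi-labelled libraries none of the 98 was called higher in males and 46 were called higher in females, where 580 genes (6.18%) were called for sex, 3.17% higher in males and 3.0% higher in females. For 51 genes a male-high call in controls was followed by no sex call, and for 19 by a female-high call. A difference between the sexes in 1 genotype and the interaction use the same libraries, so these counts describe the form of the interaction and do not test it again.

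The 33 genes with a difference below 0 mirrored the 98 in the sex difference of controls, while their genotype effects within a sex took other forms. In controls 30 of them were called higher in females, and 28 of those 30 had no sex call in the RNAi-labelled libraries. Of the 33, 16 were called only in females, all lower, and 7 only in males, all higher. A further 4 were called lower in both sexes, 2 higher in both and 4 in opposite directions. On the X chromosome lay 12 of the 98 and 5 of the 33, against 16.56% of the genes tested.

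**Figure D1:**
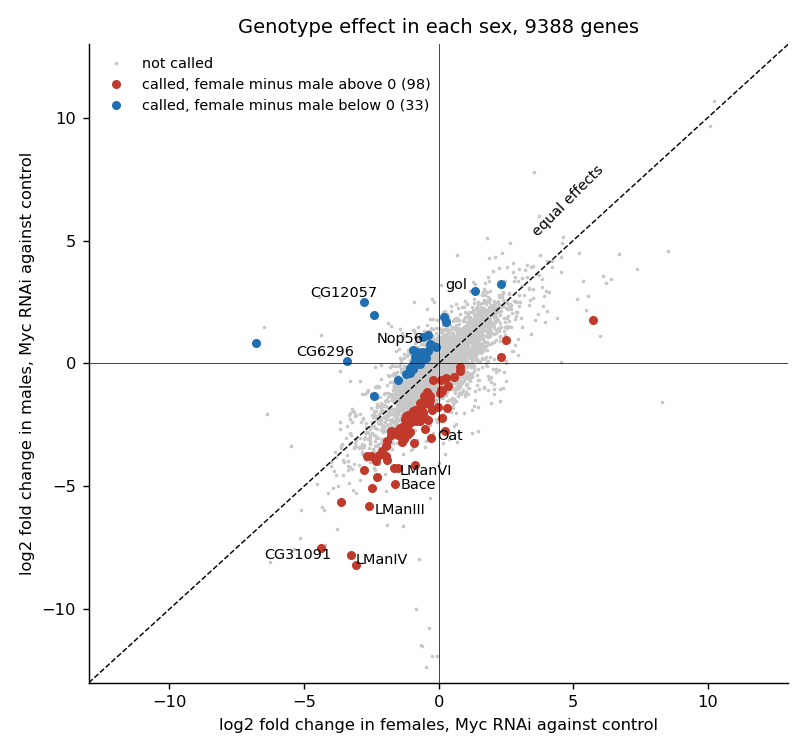
Log2 fold change of each tested gene between RNAi-labelled libraries and controls, in females (x axis) and in males (y axis); the dashed line marks equal effects, red points are the 98 genes called with a difference above 0 and blue points the 33 called below 0. Most red points lie in the lower left, below the line, where with TMM scaling both sexes fell and males fell further.

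A call says that the 2 effects differ, and most genes without a call were measured closely enough to limit a large difference. The 95% interval of the interaction lay within 1 log2 unit of 0 for 5688 genes (60.59%), and the median distance from estimate to bound was 0.56 over all genes. The median interaction of all genes was −0.01. At an unadjusted p below 0.05 there were 1173 genes (12.5%), 654 above and 519 below 0. Just inside the threshold were regucalcin (edgeR adjusted p = 0.0491), Ugt36A1 and Gal (both 0.0496), and just outside it GstE6 (0.0509), CG43055 (0.0524) and Prx6b (0.0537).

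The count depended on single libraries and on the tool. Without 1 library it ranged from 40, without replicate 15, to 173, without replicate 5. The count was also low without replicate 6 (62), 9 (77), 12 (87), 13 (48) or 14 (77). RNAi-labelled males, with 3 libraries (13 to 15), were the smallest group, so leaving 1 of them out also lowers the precision. A lost call there need not mean a changed estimate. Over the 15 fits the interaction ranged from 1.172 to 1.425 for LManII and from 1.011 to 1.188 for Taldo, which both lost calls. DESeq2 called 313 genes, all 131 among them, and total-count scaling 76. In each of the 15 fits without 1 library 28 of the 98 genes and 10 of the 33 were called.

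Markers of other cells and tissues moved with some of these groups. Summed over its list, the hemocyte level was 232 to 291 CPM in male controls and 147 to 200 CPM in the other 3 groups. Malpighian tubule genes summed to 266 to 353 CPM in male controls, 217 to 276 CPM in female controls and 167 to 209 CPM in the RNAi-labelled libraries. Copper cell and iron cell genes summed to 10570 to 14330 CPM in male controls and 4494 to 7243 CPM elsewhere. These 3 lists thus had their highest values in male controls, as did most of the 98 genes. Visceral muscle genes summed to 5492 to 6139 CPM in RNAi-labelled males and 3373 to 4779 CPM in the other groups. Testis genes stayed between 31.5 and 47.5 CPM in the 15 libraries. Male accessory gland genes, of which 6 of 26 had no read in any of them, summed to 1.23 to 16.7 CPM in male controls. In the other groups that sum was 0.71 to 5.43 CPM. Male control 7 held 504 reads of the accessory gland list, and male control 5, the next highest, 135. None of the 13 tubule, 10 hemocyte or 24 muscle genes tested was called for the interaction, where 1.4% of all genes tested were. The part of these tissues in the results below was not tested, and in pooled guts fewer cells of a type and less RNA per cell cannot be told apart.

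The lysosomal alpha-mannosidases, which trim mannose from glycans, gave the list with the largest median difference among lists with at least 6 tested members. All 6 LMan genes were called above 0, against 1.04% of all genes tested. The 2 other members of the list of 8, alpha-Man-Ia and alpha-Man-IIa, were not called (interaction −0.03 and −0.12). The list's median interaction was 2.13, from medians of −1.33 in females and −3.53 in males, and remained 2.07 with total-count scaling. LManIII, LManIV, LManV and LManVI stand next to each other on chromosome 2L (BDGP6, 8765273 to 8781252), and LManI and LManII form a second pair (10452677 to 10462472). As tandem copies they may share reads, so the value of a single LMan gene is uncertain.

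LManIV had the widest difference of the 6. In females it was at 172, 66.1, 148 and 91.6 CPM in controls and at 2.96, 17.9, 12.3 and 16.4 CPM in the RNAi-labelled libraries. Male controls were at 218, 659, 384.5 and 433 CPM, RNAi-labelled males at 2.56, 1.90 and 1.28 CPM. The controls were thus above the other genotype in both sexes with no overlap, and the RNAi-labelled male libraries were below all female ones. The log2 fold change of LManIV was −3.27 in females and −7.80 in males, an interaction of 4.52 (SE 0.72, edgeR adjusted p = 0.00524).

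LManV was at 2747, 2057, 2521 and 1815 CPM in female controls, 518, 1021, 741 and 934 CPM in RNAi-labelled females, 3102, 4860, 3059 and 3509 CPM in male controls, and 210, 200 and 160 CPM in RNAi-labelled males. Again no groups of 1 sex overlapped, and the order of the sexes was opposite in the 2 genotypes. The interactions were 2.75 for LManV (SE 0.33), 2.59 for LManVI (SE 0.33), 3.24 for LManIII (SE 0.45) and 1.66 for LManI (SE 0.23), each with an edgeR adjusted p of 0.00304. LManII followed with 1.29 (SE 0.24, edgeR adjusted p = 0.0162), a call lost without replicate 13 or 15, where the adjusted p reached 0.0548.

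**Figure D2:**
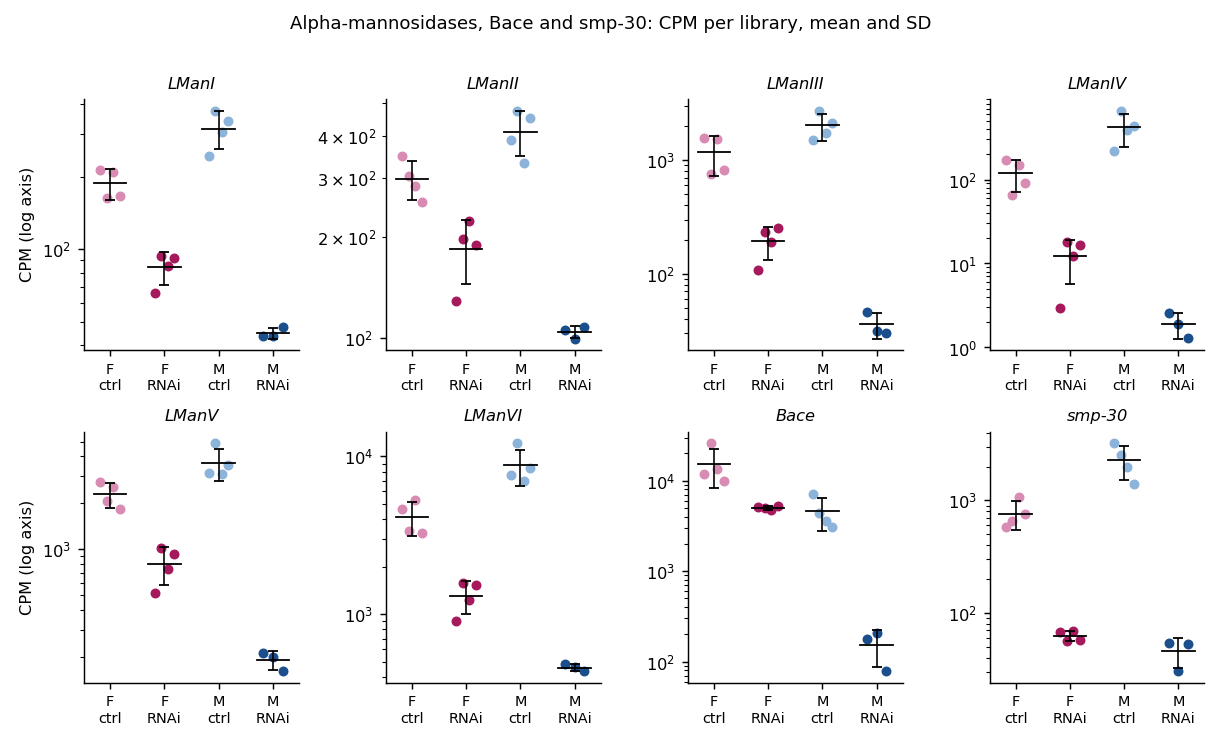
CPM per library (points, log axis) with group mean and SD for the 6 LMan genes, Bace and smp-30; F and M are females and males, ctrl controls and RNAi the RNAi-labelled libraries. For the LMan genes male controls lie highest and RNAi-labelled males lowest of the 4 groups, and for Bace the females lie above the males in both genotypes.

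Bace, a pepsin-like aspartic protease of the gut, was higher in every female library than in any male library of the same genotype. Its level was 12000, 25780, 13640 and 10020 CPM in female controls and 5091, 4994, 4687 and 5247 CPM in RNAi-labelled females. Male controls held 7171, 4436, 3628 and 3093 CPM and RNAi-labelled males 176, 209 and 78.1 CPM. The genotypes did not overlap in either sex. Bace changed by −1.62 on the log2 scale in females and by −4.89 in males, an interaction of 3.27 (SE 0.51, edgeR adjusted p = 0.00508), and it was called without any 1 of the 15 libraries. None of the 32 digestive serine proteases tested was called for the interaction, where 1.4% of all genes tested were. Of the 32, 29 were called lower in females and 30 in males, against 19.4% and 18.4% of all genes. Their median interaction was 0.38.

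smp-30, named for a mammalian senescence marker protein, fell in both sexes from unequal starting levels. Female controls were at 575, 659, 1068 and 751 CPM and male controls at 3209, 2561, 2000 and 1396 CPM. In the RNAi-labelled libraries it was at 56.7 to 69.3 CPM in females and at 54.3, 30.2 and 53.4 CPM in males. The sexes thus did not overlap in either genotype, with males higher in controls and lower in the other. The smp-30 interaction was 2.03 (SE 0.38, edgeR adjusted p = 0.0162).

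Among 16 genes of starch and sugar digestion, 4 maltases, Mal-A3, Mal-A4, Mal-A7 and Mal-A8, were called above 0 and none below. Across the alternatives 0 to 5 of the list were called above 0, and in the main fit 1.04% of all genes tested were. Maltases split malto-oligosaccharides into glucose. The list's median interaction was 0.52. Of its 16 genes, 12 were called lower in females and 14 in males, against 19.4% and 18.4% of all genes tested. The amylases, which cut starch, were called lower in both sexes: the log2 fold changes in females and males were −2.14 and −2.349 for Amy-p, −2.03 and −2.18 for Amy-d, and −4.525 and −4.89 for Amyrel, with interactions of 0.21 (SE 0.35), 0.15 (SE 0.35) and 0.37 (SE 0.50) that were not called. Amy-p and Amy-d are near-identical copies, so reads may have been split between them.

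Mal-A4 was at 2786, 2625, 3850 and 1662 CPM in female controls and 7430, 6721, 5655 and 5278 CPM in male controls. In the RNAi-labelled libraries it was at 971 to 1133 CPM in females and at 986, 550 and 760 CPM in males. The sexes were separate in controls, and overlapped in the other genotype. Its interaction was 1.67 (SE 0.34, edgeR adjusted p = 0.0231), that of Mal-A3 1.24 (0.0239), and both calls were lost without replicate 6, 14 or 15 (highest edgeR adjusted p 0.0882 for Mal-A4 and 0.0923 for Mal-A3). Mal-A7 (0.96, edgeR adjusted p = 0.0289) and Mal-A8 (0.99, 0.0345) kept their calls in only 5 and 4 of the 15 fits without 1 library, with adjusted p up to 0.123 and 0.143. The sex difference of controls was not seen in the other genotype for Mal-A7, which was at 10860 to 13770 CPM in male controls, 5539 to 7887 CPM in female controls, and 2587 to 3083 CPM in all RNAi-labelled libraries.

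In the glycolysis list 3 of 16 genes, Pgi, fbp and Gpdh1, were called above 0 and none below, with a list median of 0.47. The share called above 0 was 1.04% among all genes tested. Within a sex, 2 of the 16 were called lower in females and 8 in males, against 19.4% and 18.4% of all genes tested. Across the alternatives the number called for the interaction ranged from 0 to 4. Pgi, glucose-6-phosphate isomerase, was at 277, 360, 421 and 330 CPM in female controls, 255, 182, 159 and 181 CPM in RNAi-labelled females, 958, 770, 550 and 471 CPM in male controls, and 127, 143 and 136 CPM in RNAi-labelled males. Male controls were above all other libraries. The Pgi interaction was 1.51 (SE 0.31, edgeR adjusted p = 0.0244), and the call was lost without replicate 4, 6, 9, 13, 14 or 15 (highest adjusted p 0.0923). fbp, the gluconeogenic fructose-1,6-bisphosphatase, had equal control means in the sexes (118 ± 7.7 CPM in females and 119 ± 33.97 CPM in males, SD, n = 4 each) and fell to 53.4 ± 4.1 CPM in females (n = 4) and 23.5 ± 4.6 CPM in males (n = 3). The fbp interaction was 1.201 (edgeR adjusted p = 0.0265), lost without replicate 4, 6, 9, 11, 14 or 15 (highest adjusted p 0.109). Gpdh1, glycerol-3-phosphate dehydrogenase, was called in males only, where its effect was −0.58 (−0.10 with total-count scaling), and its interaction of 0.86 (edgeR adjusted p = 0.0324) was called in 5 of the 15 fits without 1 library (adjusted p up to 0.109). Of the other members, Pgk (0.63), Ald (0.59) and Tpi (0.62) were not called.

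The pentose phosphate pathway, which yields NADPH and ribose phosphate, had 2 enzymes called. Transaldolase, Taldo, was at 395, 365, 426 and 360 CPM in female controls, 313, 224, 278 and 233 CPM in RNAi-labelled females, 576, 612, 506 and 443 CPM in male controls, and 163, 174 and 167 CPM in RNAi-labelled males. No groups overlapped in either sex, and males were above females in controls and below them in the other genotype. The Taldo interaction was 1.11 (SE 0.20, edgeR adjusted p = 0.0114), with an adjusted p of 0.0507 without replicate 15. Rpi, ribose-5-phosphate isomerase, had an interaction of 1.01 (edgeR adjusted p = 0.0187), lost without replicate 13, 14 or 15 (highest 0.0581). The other pathway genes, chosen after their values were seen, did not pass: the interactions were 1.36 for Zw, glucose-6-phosphate dehydrogenase (edgeR adjusted p = 0.0699), 1.16 for the transketolase gene CG8036 (0.0752), 0.74 for Rpe (0.139) and 0.96 for Pgd (0.143).

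**Figure D3:**
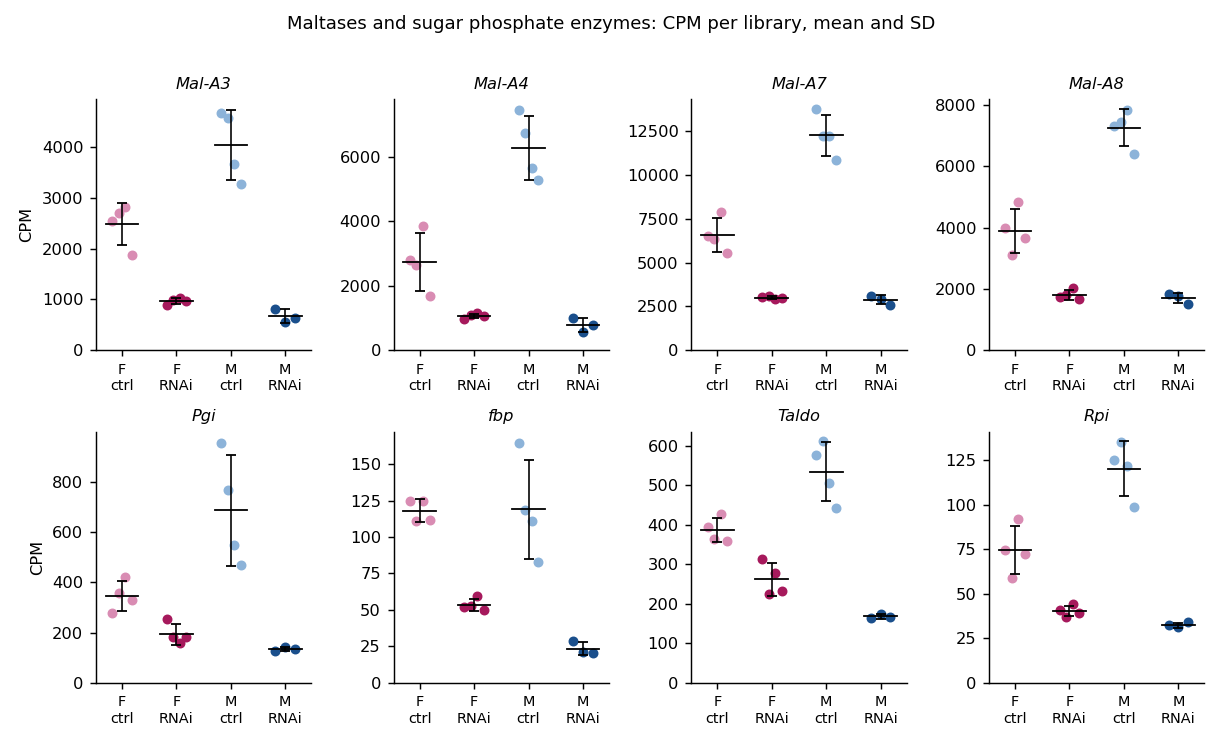
CPM per library (points, linear axis from 0) with group mean and SD for 4 maltases and 4 sugar phosphate enzymes; F and M are females and males, ctrl controls and RNAi the RNAi-labelled libraries. For all 8 genes male controls have the highest mean and RNAi-labelled males the lowest, with fbp almost level between the sexes in controls.

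Akr1B and Sodh1, which are in none of the lists, were also called. Akr1B, an aldo-keto reductase, changed in males only. It was at 403, 423, 528 and 386 CPM in female controls and 488, 422, 406.5 and 377 CPM in RNAi-labelled females, which overlapped. Male controls held 811, 1142, 939 and 703 CPM and RNAi-labelled males 269, 268 and 240.5 CPM, with no overlap. The Akr1B log2 fold change was −0.04 in females (0.39 with total-count scaling) and −1.79 in males, an interaction of 1.75 (SE 0.23, edgeR adjusted p = 0.00304). Sodh1, sorbitol dehydrogenase, changed by −1.37 in females and by −3.21 in males, from 89.1 to 133 CPM and 147 to 204 CPM in controls to 40.8 to 50.01 CPM and 13.4 to 25.2 CPM. Its interaction was 1.84 (SE 0.28, edgeR adjusted p = 0.00469), and with all 16 libraries the adjusted p was 0.0519. The second sorbitol dehydrogenase gene, Sodh2, looked up after its values were seen, stayed at or below 1.28 CPM and was not called (interaction −0.09, SE 0.70, edgeR adjusted p = 0.982).

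Transporters with a difference above 0 included 1 of 27 sugar transporters and 1 of 18 amino acid transporters, where 1.04% of all genes tested were called above 0. The sugar transporters had a median interaction of 0.49, with 22 estimates above and 5 below 0. For the amino acid transporters the median was −0.04, with 8 above and 10 below 0. The putative sugar transporter CG1208 fell from 659 to 762 CPM to 227 to 317 CPM in females. In males it went from 812 to 1164 CPM to 120, 138 and 148 CPM. Its interaction was 1.38 (SE 0.21, edgeR adjusted p = 0.00492), and it was called without any 1 of the 15 libraries. Arcus, acs, an amino acid transporter, had an interaction of 1.80 (edgeR adjusted p = 0.0214), lost without replicate 13 or 14 (highest adjusted p 0.0681). The ABC transporter gene Mdr49 was at 365 to 552 CPM in female controls, 80.4 to 95.7 CPM in RNAi-labelled females, 562 to 892 CPM in male controls and 46.2, 49.8 and 50.8 CPM in RNAi-labelled males. The Mdr49 groups did not overlap, and the interaction of 1.63 (SE 0.23, edgeR adjusted p = 0.00344) was called without any 1 library.

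The lists of lipases and of lipid synthesis and transport had 1 gene each called above 0, where 1.04% of all genes tested were. In the list of lipases, CG31091 was the only 1 of 17 genes called, with 116 to 278 CPM in female controls against 1.99 to 16.9 CPM in RNAi-labelled females, and 305 to 606 CPM in male controls against 1.55 to 4.14 CPM in RNAi-labelled males. The CG31091 interaction was 3.15 (SE 0.72, edgeR adjusted p = 0.0409), called in 3 of the 15 fits without 1 library (adjusted p up to 0.163). The list median was 0.80, and 7 of the 17 had an unadjusted p below 0.05, against 12.5% of all genes tested. The acyl-CoA binding protein gene Acbp3 had an interaction of 1.65 (edgeR adjusted p = 0.00638, and 0.109 with all 16 libraries). ATPCL, ATP citrate lyase, was called in males only and was the 1 of 21 genes of lipid synthesis and transport to be called (interaction 1.33, edgeR adjusted p = 0.0259, lost without replicate 6, 10, 13 or 15 with an adjusted p up to 0.102). Malic enzyme, Men, an NADPH source outside these lists, had an interaction of 1.38 (edgeR adjusted p = 0.0354), called in 4 of the 15 fits (adjusted p up to 0.105).

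Detoxification genes leaned the same way, where 1.04% of all genes tested were called above 0. Of 62 glutathione and UDP-glycosyl transferases, 5 were called above 0 (GstT3, GstT4, GstE8, Ugt35C1 and Ugt36A1) and none below, 53 estimates were above 0 and the list median was 0.52. The number called ranged from 1 to 19 across the alternatives. GstT3, GstE8 and Ugt36A1 were called in 6, 4 and 3 of the 15 fits without 1 library (edgeR adjusted p up to 0.0943, 0.129 and 0.174), and GstT4 in 12 (up to 0.0731). Ugt35C1 was the firmest, with an interaction of 1.52 (SE 0.28, edgeR adjusted p = 0.013), from 1129 to 245 CPM in females and 1382 to 104 CPM in males (group means). Of 68 cytochrome P450 genes, 3 were called above 0: Cyp6g1 (1.11, edgeR adjusted p = 0.0214), Cyp309a1 (1.19, 0.0252) and Cyp4ac1 (1.02, 0.0163). The Cyp6g1 call was lost without replicate 15 (0.0924), that of Cyp4ac1 without replicate 13 or 15 (up to 0.0581) and that of Cyp309a1 without replicate 4, 6, 9, 13 or 15 (up to 0.101). The median interaction of the P450 list was 0.36, and the number called ranged from 0 to 8 across the alternatives. Of 16 antioxidant genes 0 were called for the interaction by edgeR, 13 estimates were above 0 and the list median was 0.16.

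For 20 of the 98 genes the genotype effect was called in males only. The uncharacterised gene CG2680 was at 2.62 to 7.95 CPM in female controls and 4.00 to 8.77 CPM in RNAi-labelled females, against 33.97 to 50.8 CPM in male controls and 5.69 to 7.13 CPM in RNAi-labelled males. Male controls stood apart from the other 11 libraries, and the interaction was 2.99 (SE 0.47, edgeR adjusted p = 0.00508). Oat, ornithine aminotransferase, was at 30.8, 117, 98.8 and 75.1 CPM in male controls and at 4.61 to 18.2 CPM in all other libraries, with an interaction of 2.75 (edgeR adjusted p = 0.0333) that was called in 5 of the 15 fits without 1 library (adjusted p up to 0.0993). The metallothionein gene MtnD, which binds metal ions, was at 236 to 406 CPM in male controls and 67.7 to 109 CPM in RNAi-labelled males. In females MtnD overlapped between 55.6 and 198 CPM. Its interaction of 2.12 (edgeR adjusted p = 0.0293) was called in 7 of the 15 fits (adjusted p up to 0.119). MtnD was the 1 of 12 copper cell and iron cell genes called, where 1.04% of all genes tested were called above 0.

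Other uncharacterised or low genes were called in males only or in both sexes. CG8369, called in males only, was at 1.85 to 3.06 CPM in all female libraries, 3.72 to 6.16 CPM in male controls and 1.01 to 1.33 CPM in RNAi-labelled males (interaction 2.352, edgeR adjusted p = 0.00304). CG31674, called in males only (interaction 1.18, edgeR adjusted p = 0.00508), and meep, called lower in both sexes (1.62, 0.00304), also had their highest mean in male controls and their lowest in RNAi-labelled males. All 3 interactions were called by edgeR without any 1 library. CG34316, called lower in both sexes, had only 5 reads over the 3 RNAi-labelled males, against 2555 over the male controls. Its level was 5.23 to 9.23 CPM in female controls and 0.25 to 1.66 CPM in RNAi-labelled females. The peritrophic matrix, chitin and mucin list had 1 of 31 genes called above 0, against 1.04% of all genes tested. It was the mucin gene Muc68Ca (1.89, edgeR adjusted p = 0.0252), which stayed below 5 CPM in every group mean.

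A few genes with a difference above 0 rose. CG16985 was called in opposite directions: it was at 125 to 158 CPM in female controls, 170 to 242 CPM in RNAi-labelled females, 243 to 376 CPM in male controls and 188 to 234 CPM in RNAi-labelled males (log2 fold change 0.58 and −0.54, interaction 1.12, edgeR adjusted p = 0.0244). The call was lost without replicate 6, 9, 13, 14 or 15 (up to 0.102), and the male effect was −0.04 with total-count scaling. Its neighbour CG12182 overlaps it on chromosome 3L (2599297 to 2600242 for CG16985, 2595842 to 2599579 for CG12182), so reads could have been shared. CG10562 rose in females only, from 222 to 259 CPM to 382 to 466 CPM, against 274 to 399 CPM and 291 to 298 CPM in males. The CG10562 interaction was 0.94 (edgeR adjusted p = 0.0187), lost without replicate 13, 14 or 15 (up to 0.0726).

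Genes of ribosome assembly made up the largest listed group among the 33 differences below 0. Of 36 ribosome biogenesis genes, 9 were called below 0 and none above: Nop56, nop5, Nop60B, Tsr1, pit, bys, nclb, Rrp6 and CG4364. Among all genes tested 0.352% were called below 0. At an unadjusted p below 0.05 there were 21, 33 of the 36 estimates were below 0, and the list median was −0.64, against −0.01 for all genes. The medians within a sex were −0.63 in females and −0.08 in males. In females 24 of the 36 were called lower, against 19.4% of all genes tested. In males 5 were called lower and 6 higher, against 18.4% and 21.1% of all genes tested, so the male counts were not above those shares. With total-count scaling, which moved the median effect of all genes to 0.43 in females and 0.50 in males, the list medians were −0.19 and 0.42. The number called depended on the setting, from 3 without replicate 13 or 15 or with total-count scaling to 13 with DESeq2.

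Nop56 and nop5 are the core scaffold proteins of the box C/D small nucleolar particles that methylate ribosomal RNA. Nop56 was at 53.6, 66.1, 53.7 and 50.5 CPM in female controls and 39.5, 34.1, 38.3 and 34.99 CPM in RNAi-labelled females. In males the order was opposite, with controls at 30.0, 30.5, 35.5 and 30.5 CPM and RNAi-labelled libraries at 41.1, 44.9 and 44.9 CPM. Neither sex showed an overlap between genotypes. Nop56 changed by −0.61 in females and by 0.46 in males, both called. With total-count scaling these effects were −0.16 and 0.95. The interaction was −1.07 (SE 0.15, edgeR adjusted p = 0.00304), and it was called under every alternative run.

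The partner nop5 was at 45.7 to 57.9 CPM in female controls and 33.3, 41.1, 38.5 and 50.04 CPM in RNAi-labelled females, which overlapped. Male controls were at 23.5 to 30.6 CPM and RNAi-labelled males at 44.6, 47.0 and 46.9 CPM, with no overlap. Its log2 fold change was −0.32 in females, not called and 0.10 with total-count scaling, and 0.77 in males, and the interaction was −1.097 (SE 0.19, edgeR adjusted p = 0.00781, and 0.0548 with total-count scaling). Fib, fibrillarin, the methyltransferase of the same particles, had an interaction of −1.01 that missed the threshold (edgeR adjusted p = 0.0605).

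Nop60B, the pseudouridine synthase of the box H/ACA particles, and its partner Gar1, which was in none of the lists, were both called. Nop60B was at 50.2 to 70.3 CPM in female controls, 45.5 to 53.5 CPM in RNAi-labelled females, 31.3 to 41.6 CPM in male controls and 53.4 to 64.3 CPM in RNAi-labelled males. It rose in males by 0.71, and in females its effect was −0.19 (0.22 with total-count scaling). The Nop60B interaction was −0.90 (SE 0.18, edgeR adjusted p = 0.0214), lost without replicate 6, 13 or 15 (up to 0.0882). Gar1 was at 32.4, 21.3, 18.1 and 19.9 CPM in female controls, 10.7 to 13.3 CPM in RNAi-labelled females, 7.63, 7.95, 14.6 and 11.6 CPM in male controls, and 14.2, 14.9 and 17.3 CPM in RNAi-labelled males. Only the female groups were separate for Gar1, and the interaction was −1.51 (SE 0.30, edgeR adjusted p = 0.0227), lost without replicate 6, 9, 13 or 15 (up to 0.091).

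Several further factors of ribosome assembly were called below 0. Tsr1, which acts on the small subunit, was at 41.5 to 47.3 CPM in female controls and 22.1 to 23.2 CPM in RNAi-labelled females, against 27.5 to 32.4 CPM and 24.1, 25.4 and 25.6 CPM in males. The groups were separate in both sexes, although only the female difference was called (−0.96, and −0.22 in males, which was 0.26 with total-count scaling). The Tsr1 interaction was −0.74 (SE 0.12, edgeR adjusted p = 0.00524), called without any 1 of the 15 libraries (up to 0.0286). Noc3, a nucleolar factor outside the lists, fell in females from 21.8 to 24.2 CPM to 10.1 to 12.4 CPM and overlapped in males (interaction −0.85, edgeR adjusted p = 0.00827). The RNA exonuclease gene Rexo5 had an interaction of −0.73 (edgeR adjusted p = 0.0121). With total-count scaling these 3 calls were lost (edgeR adjusted p 0.122 for Tsr1, 0.094 for Noc3 and 0.141 for Rexo5). The DEAD-box helicase gene pit (−0.83), bystin, bys (−0.81), nclb (−0.76), the exosome exonuclease gene Rrp6 (−0.65) and the pescadillo homologue CG4364 (−0.83) were called less firmly, in 13, 8, 6, 8 and 7 of the 15 fits without 1 library. Within a sex, Tsr1, Noc3, Rexo5, pit, bys and Rrp6 were called lower in females and not called in males, while nclb (−1.21 and −0.44) and CG4364 (−1.51 and −0.69) were called lower in both, with male effects of 0.04 and −0.19 with total-count scaling.

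RNA polymerase I, which transcribes ribosomal RNA, had its 2 largest subunits called below 0, out of 14 genes of RNA polymerases I and III. The share called below 0 was 0.352% among all genes tested, and the list median was −0.40. Polr1A was at 50.7, 45.3, 41.2 and 41.2 CPM in female controls and 19.3, 21.2, 24.2 and 21.03 CPM in RNAi-labelled females. Male controls were at 27.5, 29.8, 27.5 and 32.8 CPM and RNAi-labelled males at 23.6, 28.5 and 24.9 CPM, which overlapped. The Polr1A interaction was −0.86 (SE 0.15, edgeR adjusted p = 0.0123), called without any 1 of the 15 libraries, and not called with total-count scaling or all 16 libraries (up to 0.102). Polr1B, with −0.95 (SE 0.21, edgeR adjusted p = 0.0302), was called in 5 of the 15 fits without 1 library (up to 0.0933). The mitochondrial RNA polymerase gene PolrMT, in none of the lists, had an interaction of −0.70 (edgeR adjusted p = 0.0279), called in 6 of the 15 fits (up to 0.0924).

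**Figure D4:**
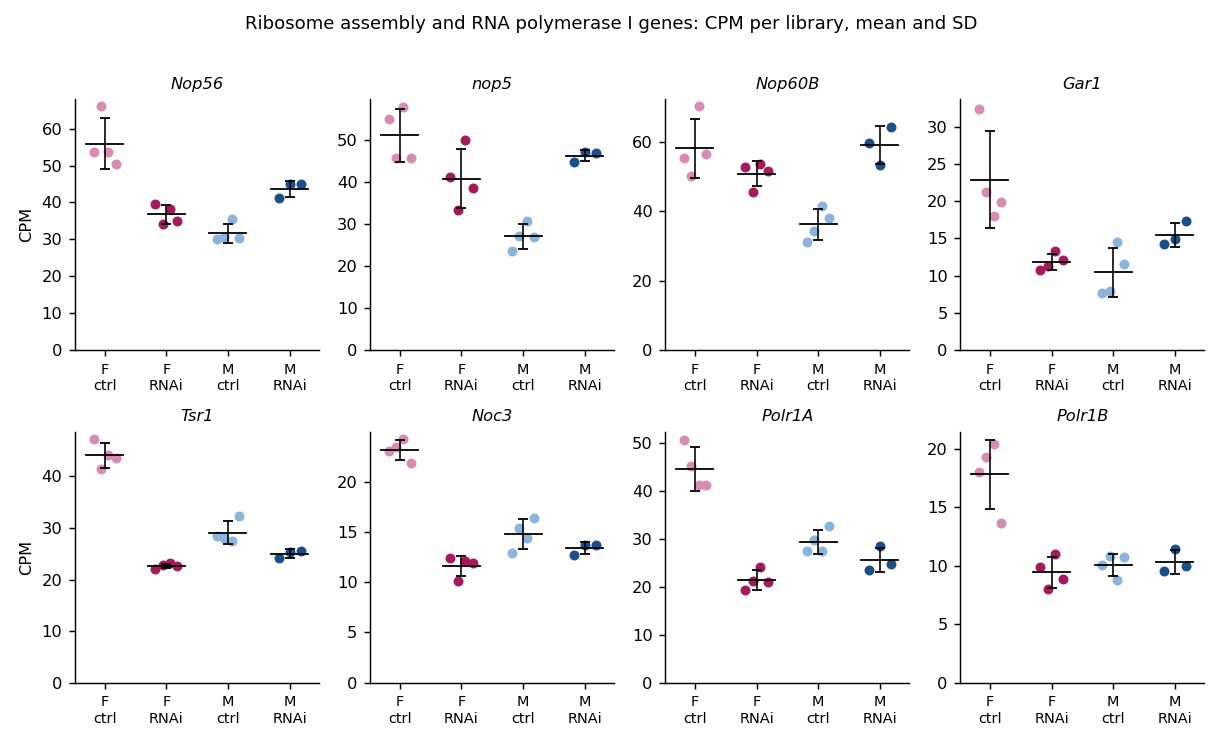
CPM per library (points, linear axis from 0) with group mean and SD for 6 ribosome assembly genes and 2 RNA polymerase I subunits; F and M are females and males, ctrl controls and RNAi the RNAi-labelled libraries. Female controls have the highest mean except for Nop60B, and for Nop56, nop5, Nop60B and Gar1 the male mean is higher in the RNAi-labelled libraries than in controls.

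The structural proteins of the ribosome were not called for the interaction, although their estimates leaned the same way. All 82 cytosolic ribosomal protein genes tested had an estimate below 0, with a median of −0.46 against −0.01 for all genes. None was called (4 at an unadjusted p below 0.05), where 1.4% of all genes tested were. Their summed level ranged from 122300 to 235900 CPM within female controls and from 65400 to 119800 CPM within male controls. The 82 genes share these libraries, so their common direction is not 82 separate results. Of the 82, 80 were called lower in females (median −1.33) and 77 in males (median −0.89), against 19.4% and 18.4% of all genes. Translation factors gave 0 calls of 46 (median interaction −0.28, 6 unadjusted) and mitochondrial ribosomal proteins 0 of 72 (median −0.16, 5 unadjusted), by the same edgeR test.

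The remaining named genes below 0 were of mixed kinds. pyr, a fibroblast growth factor ligand, was at 19.8 to 24.95 CPM in female controls, 15.3 to 20.9 CPM in RNAi-labelled females, 13.1 to 22.4 CPM in male controls and 55.2, 24.1 and 44.3 CPM in RNAi-labelled males. It was called higher in males only, and its interaction was −1.56 (edgeR adjusted p = 0.0244), lost without replicate 6, 9, 13 or 15 (up to 0.0895). gol, the endosomal ubiquitin ligase goliath, rose in both sexes. Females went from 7.62 to 8.68 CPM to 15.6 to 24.0 CPM, and males from 4.65 to 6.08 CPM to 50.4, 28.6 and 44.0 CPM. The interaction of gol was −1.61 (SE 0.25, edgeR adjusted p = 0.00508), called without any 1 library. Dh31-R, the receptor of the peptide hormone DH31, fell in both sexes, further in females (−2.41 and −1.34, interaction −1.08, edgeR adjusted p = 0.0455), and was called in 5 of the 15 fits (up to 0.158). The zinc transporter gene Zip42C.2 (−1.66, edgeR adjusted p = 0.0306) and Drep2, related to DNA fragmentation factors (−0.91, 0.0244), were called in 7 and 11 of the 15 fits. The gene listed as pen had an interaction of −0.98 (edgeR adjusted p = 0.0335), called in 6 of the 15 fits (up to 0.109).

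CG6296 had a larger difference than any of these. It was at 138, 130, 141 and 70.2 CPM in female controls and at 6.41, 7.21, 17.6 and 14.2 CPM in RNAi-labelled females. Male controls held 42.8, 75.5, 43.3 and 32.6 CPM and RNAi-labelled males 69.6, 38.7 and 46.3 CPM. The female groups were apart and the male groups overlapped, with an interaction of −3.47 (SE 0.50, edgeR adjusted p = 0.00344) that was called in every fit without 1 library. CG12057 ranged from 125 to 1035 CPM in female controls and 17.1 to 103 CPM in RNAi-labelled females, against 0.63 to 4.39 CPM and 3.16 to 19.5 CPM in males. Its interaction of −5.25 (SE 1.18, edgeR adjusted p = 0.0351) was called in 4 of the 15 fits (up to 0.117). CG31454 was at 6.75 to 11.5 CPM in every female library and in RNAi-labelled males at 8.64 to 11.6 CPM, but at 2.23 to 3.74 CPM in male controls (interaction −1.68, edgeR adjusted p = 0.00536).

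Among the lists with no call, several held genes that changed in both sexes. For all genes tested, the shares called were 20.2% higher in females, 21.1% higher in males and 1.4% for the interaction. With so small a share for the interaction, 0 calls in a short list says little about its genes. Of 41 cell cycle genes, 32 were called higher in females and 32 in males, and 0 for the interaction by edgeR (3 unadjusted, median −0.08). All 19 intestinal stem cell and enteroblast genes were called higher in females and 15 in males, with 0 calls for the interaction (1 unadjusted, median 0.01). The 24 septate junction and polarity genes (median −0.22, 3 unadjusted), the 34 midgut region transcription factors (median 0.14, 4 unadjusted) and the 12 genes of sex determination and yolk (median 0.06, 0 unadjusted) gave 0 calls each. Antimicrobial peptides had a median interaction of 1.05 over 14 genes, with 0 calls and 1 at an unadjusted p below 0.05: Drs had an interaction of 3.43 with an SE of 1.56 (edgeR adjusted p = 0.385), and DptA 2.16 with an SE of 1.04 (0.411). For these genes the spread between replicates was wide, so differences of that size were not called. The 4 lysozyme genes tested had a median interaction of 2.18 and 0 calls, with 2 at an unadjusted p below 0.05, and LysB had an interaction of 2.497 with an SE of 0.89 (edgeR adjusted p = 0.229).

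**Figure D5:**
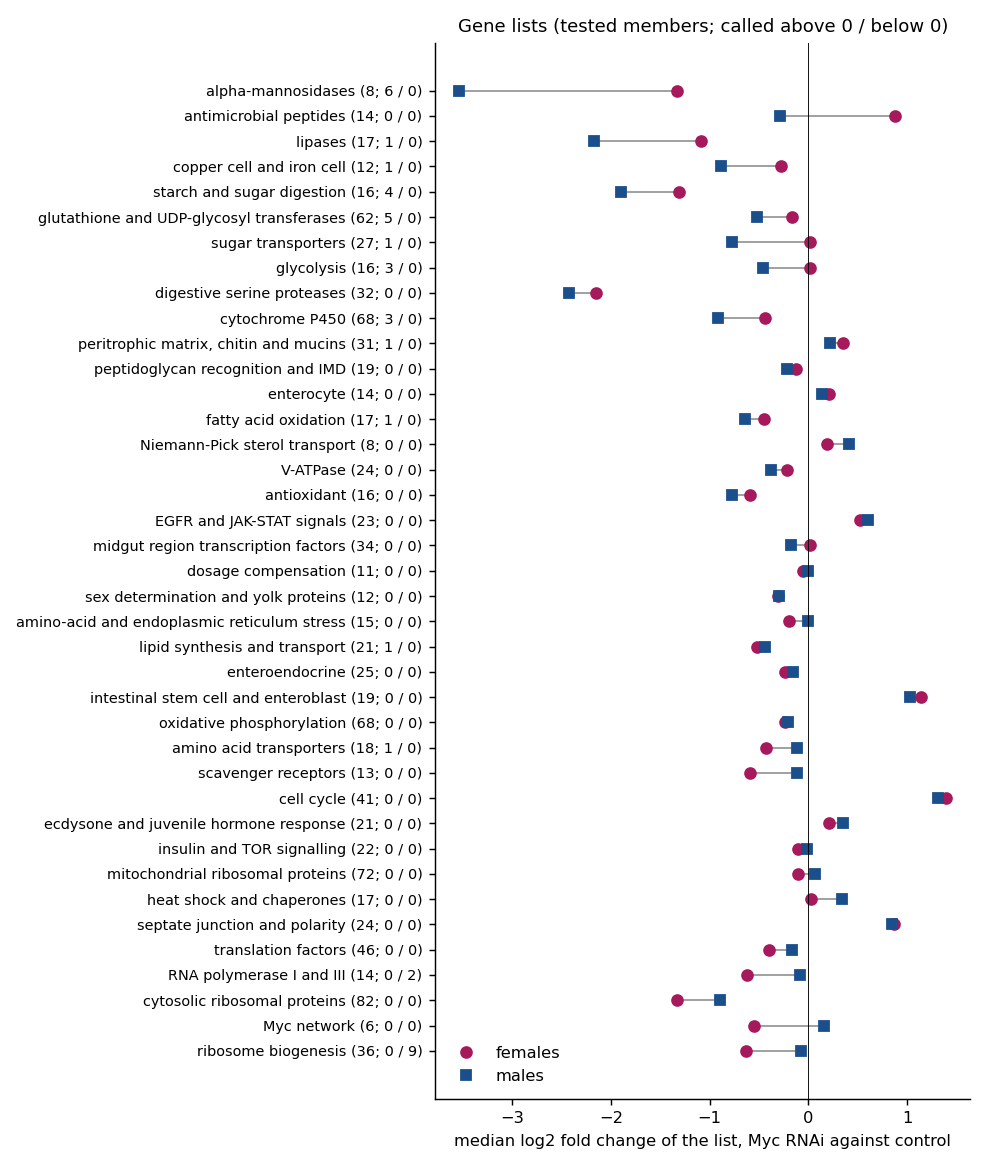
Median log2 fold change of gene lists with at least 6 tested members, in females (circles) and males (squares), ordered by the list's median interaction. Marker lists of other tissues are not drawn, among them Malpighian tubule (median interaction 0.85), hemocyte (0.59) and visceral muscle (−0.18). In brackets are the number of members tested and the numbers called above 0 and below 0. The alpha-mannosidases lie at the top with 6 called above 0, and the ribosome biogenesis list at the bottom with 9 called below 0.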

How the data were processed

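Per the labels' protocols, RNeasy columns gave the RNA, its poly(A) fraction was enriched, and NEBNext Ultra II Directional reagents turned it into libraries. The authors deposited whole-number counts per gene, unnormalized, in 1 table of 16 libraries and 16680 genes; dm6, TopHat2 2.0.11 and featureCounts are named per the submitters' processing notes. The annotation, the strand setting and the treatment of multi-mapping reads in counting are, in the sources used here, not given, so values of overlapping genes and near-identical copies are uncertain. Of the symbols in the table, 12504 were current, 4066 matched a synonym and 110 matched neither; coordinates are 1-based, from the Ensembl annotation of BDGP6.

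Genes were filtered by filterByExpr (9388 kept), scaled by TMM, and tested by edgeR quasi-likelihood (edgeR 4.0.16, R 4.3.3) in 1 fit with a mean for each of the 4 groups, with Benjamini-Hochberg adjustment over all tested genes and a threshold of 0.05. CPM are TMM-scaled, and the code was tested on simulated data. Alternatives were RLE, upper-quartile and total-count scaling, no filter, a filter of 1 CPM in 3 libraries, DESeq2 1.42.0, limma voom (limma 3.58.1), all 16 libraries, and each of the 15 libraries left out.

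Named genes were Myc, the 12 largest named and 3 largest CG or CR genes per direction at a mean of at least 5 CPM, the 5 lowest p per pattern of within-sex calls, and list members. A gene that the rule named is not reported here. The libraries, the 48 gene lists and this rule were chosen with earlier results of these data known, so no list is independent evidence. Replicates of a group differed beyond sampling noise, and the p-values rest on the spread among pools of 30 guts; library totals of at least 16630050 counts set the precision of low genes.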

Additional observations from a re-analysis of the deposited data

Results flagged for a closer look

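In all, 131 genes were noted because the test of the difference itself found unequal genotype effects in females and males (edgeR adjusted p below 0.05). Among the named genes, the difference (log2, female minus male effect) was 4.52 for LManIV, 3.27 for Bace, 3.24 for LManIII, 2.75 for LManV, 2.75 for Oat, 2.59 for LManVI, 2.12 for MtnD, 2.03 for smp-30, 1.84 for Sodh1, 1.79 for acs, 1.75 for Akr1B and 1.67 for Mal-A4. In the other direction it was −1.66 for Zip42C.2, −1.61 for gol, −1.55 for pyr, −1.51 for Gar1, −1.097 for nop5, −1.08 for Dh31-R, −1.07 for Nop56, −0.98 for pen, −0.95 for Polr1B, −0.91 for Drep2, −0.90 for Nop60B and −0.86 for Polr1A.

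Within groups of 4 libraries, 123 sets of values were searched for a library far from the other members of its group, which chance alone flags in about 1 of 20 sets. In CG12057, male control 5 was at 4.39 CPM. For CG6296, female control 4 was at 70.2 CPM. Male control 7 was at 35.5 CPM for Nop56. In male library 16, which is in no comparison of the report other than the fit with all 16 libraries, genes of the testis list held 112102 reads, above the highest of the other 15 libraries (2311).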

How the results depend on the processing

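No paired analysis was possible because the replicate numbers run from 1 to 16 and no number occurs in more than 1 group. The count of interaction genes was 131, with 98 above 0 and 33 below 0. It moved to 76 (61 and 15) with total-count scaling, 313 (220 and 93) with DESeq2, and, with all 16 libraries, to 19 below 0. Without 1 library it ranged from 40 to 173, from 30 to 126 above 0 and from 10 to 49 below 0. Genes called for sex among RNAi-labelled libraries numbered 369 with total-count scaling and 920 with DESeq2, against 580, and 189 to 749 without 1 library. Without 1 library there were 834 to 1356 genes called for sex among controls, 3263 to 3935 for genotype in females and 2952 to 3938 in males. Total-count scaling moved the share of higher calls from 51.03% to 83.84% in females and from 53.41% to 84.21% in males, with median effects of 0.43 and 0.50, while the median interaction was −0.06. Upper-quartile scaling and limma voom left the interaction counts within 1.5 times, at 96 and 36 and at 98 and 33 above and below 0. In 1495 comparisons of 65 named genes with an alternative, none changed direction, 1190 kept their side of the threshold and 305 lost the call. The causes were not tested. Leaving out RNAi-labelled male 13 or 15 left 48 or 40 calls, RNAi-labelled male 14 left 77, and male control 6 left 62.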
